A study of Canis lupus familiaris with 16 samples.

Results

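IL20RB is described here with the receptor chains it can pair with and the cytokines these receptors bind, in cultured canine liver tumour cells given a kinase inhibitor. The 7 genes were taken by symbol from the deposited count tables: the receptor chains IL20RB, IL20RA, IL22RA1 and IL10RB and the ligands IL19, IL20 and IL24. They are 7 of the 39543 gene symbols in the tables, each had 1 entry per table, and all 7 match a dog gene in RefSeq. The set was selected on the measured rise of IL20RB with sorafenib over DMSO in these libraries. Its values in that contrast are therefore a description without a test, and so are those of the other members.

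The study measured RNA by sequencing in 4 lines grown from liver tumours of dogs and labelled hepatocellular carcinoma (HCC). They are the lines KU-cHCC-001 and KU-cHCC-002, with KU-cHCC-004 and, as the last, KU-cHCC-005, and are called 001, 002, 004 and 005 below. Every line was cultured for 24 h with each of 4 treatments, and each combination gave 1 library, 16 in all. Of the treatments, 2 were drugs: 30 µM sorafenib and 15 µM toceranib. The others were the vehicles of these drugs, dimethyl sulfoxide (DMSO) for sorafenib and phosphate-buffered saline (DPBS) for toceranib. All groups shared one culture medium with fetal bovine serum, and none of the labels gives a genetic change or an added cytokine. Sorafenib and toceranib both inhibit receptor tyrosine kinases, and sorafenib also inhibits RAF kinases. By their labels the 4 replicates of a treatment are 4 lines, each a single primary culture, so a spread between libraries is a spread between lines. For DPBS these labels are in doubt, as described below, and its spread may not be one between 4 lines.

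Cytokines of the IL-20 family signal through paired chains of the class II cytokine receptor family. IL20RB pairs with IL20RA in a receptor for IL-19, IL-20 and IL-24, and with IL22RA1 in a second receptor for IL-20 and IL-24. IL22RA1 also pairs with IL10RB to bind IL-22, and IL10RB is shared further with the receptors for IL-10, IL-26 and the lambda interferons. The pairs act through the kinases JAK1 and TYK2 and mainly the transcription factor STAT3. In skin, IL-20 family receptors are known for driving keratinocyte growth and antimicrobial genes.

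Libraries held 12008366 to 21943572 counts, and levels are given as counts per 1000000 (CPM) on effective library sizes. CPM values take no account of transcript length, so the levels of different genes are not ranked against each other. The labelled tissue was checked first. Of 7 hepatocyte markers in the tables, only HNF4A and AFP reached 10 counts in any library. HNF4A did so in all 16, at 2.68 to 118 CPM, and AFP in 7, with a range of 0 to 14.6 CPM over the 16. Albumin (ALB) stayed at or under 0.423 CPM and SERPINA1 was at 0 in all 16. The biliary and progenitor markers KRT7 and EPCAM were at 241 CPM or more and 208 CPM or more in every library. The other biliary markers varied widely, with KRT19 at 6.01 to 5093 CPM, SOX9 at 1.59 to 94.7 CPM and CFTR at 0 to 355 CPM, and AQP1 was at 0 in all 16. Of the other cell types, the leukocyte markers PTPRC and CSF1R stayed at or under 0.442 CPM. Of the mesenchymal markers, VIM was at 1296 CPM or more in every library, and COL1A1 was at 41.1, 33.4 and 74.9 CPM in DMSO, sorafenib and toceranib of 001. The fibroblast collagen COL3A1 was at 0 in all DMSO and sorafenib libraries but at 72.5 and 80.4 CPM in DPBS of 002 and 005, and at 6.53 and 51.6 CPM in toceranib of 004 and 005. Toceranib of 001 had CD74 at 319 CPM and PECAM1 at 13.2 CPM, against at most 5.23 CPM and 0.259 CPM in the other libraries. The part of these cells or transcripts in the results below was not tested beyond leaving libraries out. In such bulk RNA, fewer cells expressing a gene and less RNA per cell cannot be told apart.

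The line labels of DPBS stood apart from the rest. DPBS libraries of 002 and 005 differed by 2.35 times the sampling noise and those of 001 and 004 by 2.51 times, against 11.4 times for the next closest pair of any 2 libraries. L1CAM, a neural adhesion molecule, was at 1125 CPM in DMSO, 457 CPM in sorafenib and 1015 CPM in toceranib of 001, but at 1.5 CPM in the DPBS library labelled 001. DPBS values are therefore named by their labels only, and no main comparison pairs them with the other treatments by line. Some alternative fits did take these doubted labels as lines. They are the fits of 16 libraries for the comparisons with DMSO and between lines, and the replicate block of toceranib over DPBS.

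IL20RB was almost silent with DMSO and was present in all 4 lines with sorafenib. With DMSO it was at 0.104, 0.361, 0.452 and 0.718 CPM in lines 001, 002, 004 and 005, which are 2, 6, 8 and 13 reads. With sorafenib the same lines held 2.98, 9.96, 25.7 and 63.4 CPM, from 68, 200, 485 and 1226 reads. The lowest sorafenib library was thus above the highest DMSO library, as for 6.6% of tested genes, and the lines stood in the same order with either treatment. The toceranib libraries held 0.293, 1.07, 0.871 and 0.508 CPM, and those labelled DPBS held 0.590, 0.592, 0.828 and 0.388 CPM. Both groups overlapped each other and the DMSO libraries, and none of the 12 libraries without sorafenib passed 1.07 CPM. Of tested genes, 3.98% had all toceranib libraries above DMSO, and none of the 3 testable chains did. All 4 sorafenib libraries lay above the 12 others, a pattern that 3.88% of the 14938 tested genes shared. The group means were 0.409 ± 0.253 CPM with DMSO (SD, n = 4) and 25.5 ± 27.0 CPM with sorafenib (SD, n = 4).

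**Figure D1:**
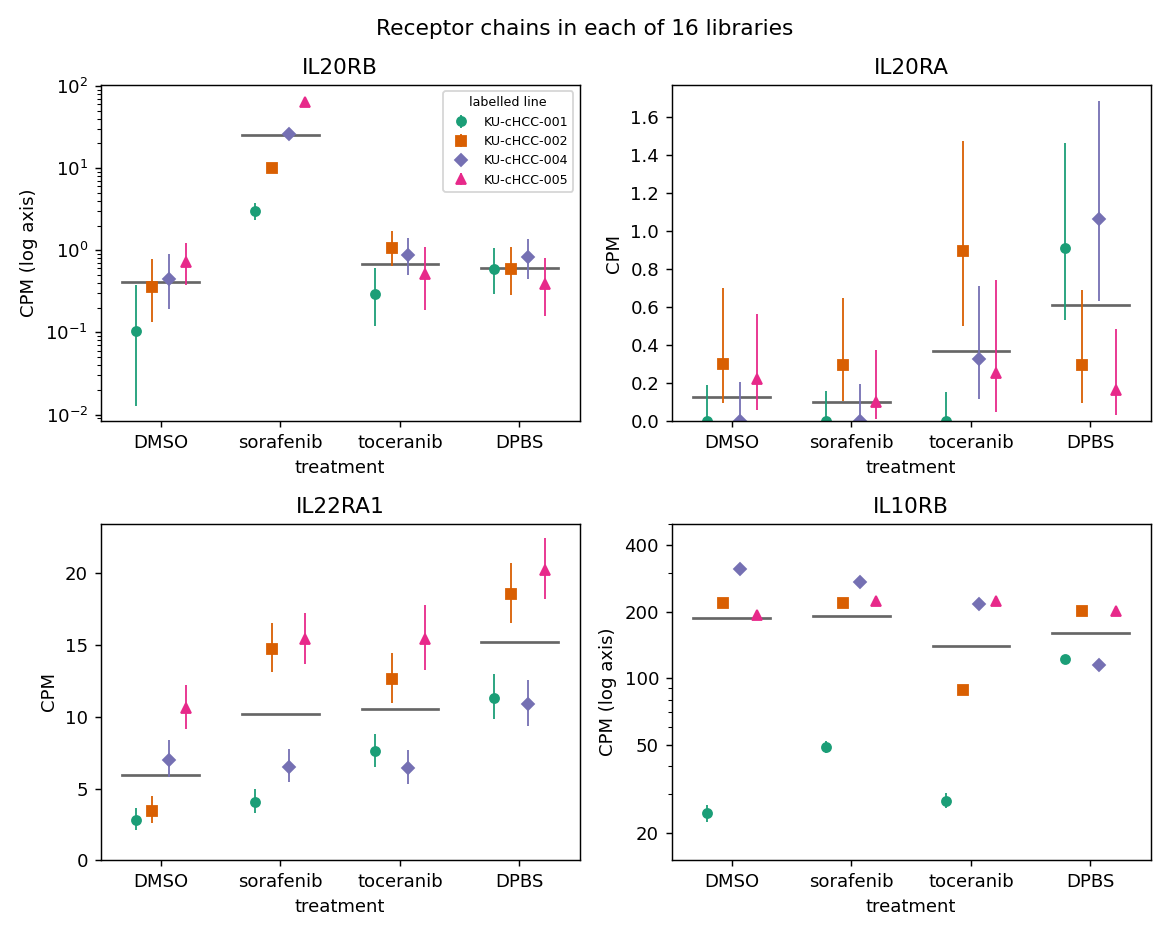
CPM of the 4 receptor chains in each of the 16 libraries, by treatment, with the 95% exact Poisson counting interval of each library and the mean of each treatment as a grey bar. The axes of IL20RB and IL10RB are logarithmic. The sorafenib libraries of IL20RB sit at 2.98 to 63.4 CPM, all above the other 12, while line 001 is the lowest for IL10RB in every treatment but DPBS.

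IL20RB was higher with sorafenib than with DMSO in 4 of 4 lines, as were 26.3% of tested genes. Line by line, the ratio of sorafenib to DMSO for IL20RB was 28.6 in 001, with an exact 95% counting interval of 7.63 to 241. It was 27.6 in 002 (12.4 to 76.0), 56.9 in 004 (28.6 to 133) and 88.3 in 005 (51.4 to 166). All 4 intervals lay well above 1 and overlapped one another. Overlap alone does not settle whether the ratios differ between lines, and this was not tested. These intervals cover counting error only, and treat reads as independent molecules, which reads without molecular identifiers need not be. With 1 library per line and treatment, spread between cultures is not in them. The fitted log2 fold change was 5.61 ± 0.57 (SE), the second highest of all tested genes, and leaving out each line in turn gave 5.21 to 5.83. The gene passed the filter on low counts through its sorafenib libraries.

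IL20RA, the partner in the receptor for all 3 ligands, was at the edge of detection. Its 84 reads came from 11 of the 16 libraries, and only 3 libraries held 10 reads or more. These were DPBS labelled 001 and 004, with 17 and 18 reads, and toceranib of 002, with 15 reads. With sorafenib IL20RA was at 0, 0.299, 0 and 0.103 CPM in lines 001, 002, 004 and 005, and with DMSO at 0, 0.301, 0 and 0.221 CPM. Lines 001 and 004 thus held no read with either treatment, and the other lines had at most 6. With toceranib the values were 0, 0.893, 0.327 and 0.254 CPM, and with DPBS 0.912, 0.296, 1.06 and 0.166 CPM. The highest IL20RA values were therefore outside the sorafenib group, in which IL20RB was high. The gene did not pass the filter on low counts in any of the comparisons and was not tested.

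IL22RA1, the partner in the second receptor for IL-20 and IL-24, was detected in every library. With DMSO it was at 2.81, 3.43, 7.01 and 10.6 CPM in lines 001, 002, 004 and 005, and with sorafenib at 4.08, 14.7, 6.52 and 15.4 CPM. The groups overlapped, and 3 of the 4 lines were higher with sorafenib. The ratio of sorafenib to DMSO was 4.29 in 002 (95% counting interval 3.22 to 5.81), 1.45 in both 001 (1.03 to 2.07) and 005 (1.21 to 1.75), and 0.931 in 004 (0.719 to 1.20). The fitted log2 fold change was 0.69 ± 0.36 (SE), and without line 002 it was 0.27. For the same libraries the ratio of IL20RB was at least 27.6 in every line.

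IL10RB, which pairs with IL22RA1 rather than with IL20RB, had a similar mean with either treatment. It was at 24.4, 218, 311 and 194 CPM with DMSO and at 48.8, 219, 271 and 224 CPM with sorafenib in lines 001, 002, 004 and 005. The ranges overlapped almost wholly, and line 001 was low in both. The ratio of sorafenib to DMSO was 2.0 in 001 (95% counting interval 1.79 to 2.23), 1.01 in 002, 0.873 in 004 and 1.16 in 005. The means were 187 ± 119 and 191 ± 97.6 CPM (SD, n = 4 each), and the fitted log2 fold change was 0.22 ± 0.25 (SE).

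**Figure D2:**
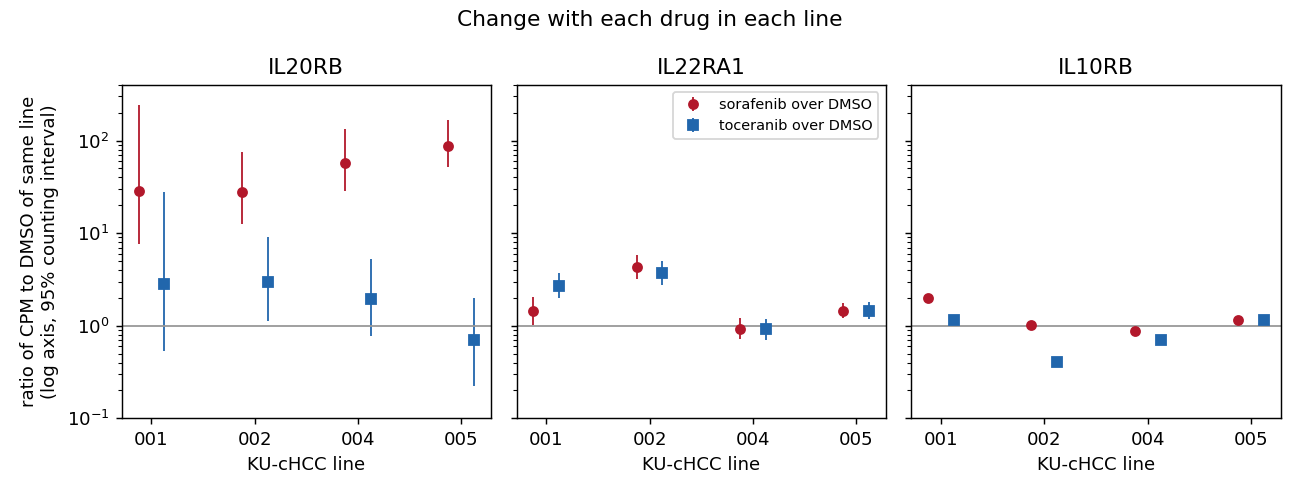
Ratio of CPM with sorafenib (circles) or toceranib (squares) to DMSO of the same line, on a logarithmic axis, for 3 receptor chains, with exact 95% counting intervals. The sorafenib ratios of IL20RB run from 27.6 to 88.3, while those of IL22RA1 run from 0.931 to 4.29 and those of IL10RB from 0.873 to 2.0.

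No read of the ligand genes IL19, IL20 and IL24 was counted in any of the 16 libraries. A count of 0 allows up to 3 counts, which is a limit of 0.126 to 0.254 CPM depending on the library. The exact interval used for single libraries is wider and reaches 0.155 to 0.312 CPM. Of 9 other class II cytokines, IL10, IL22, IL26, IFNG, IFNB1 and IFNL3 were also at 0 in all 16, IFNL1 had at most 1 read and IFNK at most 12. IFNE, an epithelial type I interferon, was the only one of the 9 that could be tested. Its mean was 3.15 ± 2.70 CPM with DMSO and 1.14 ± 0.725 CPM with sorafenib (SD, n = 4 each), a log2 fold change of -1.37 that did not pass the test (adjusted p = 0.0907, edgeR quasi-likelihood test with Benjamini-Hochberg adjustment). DESeq2, and edgeR on the 8 libraries of these 2 treatments, did call it lower. Beside IL20RB, the sorafenib libraries thus held IL22RA1 and IL10RB reads in all 4 lines, IL20RA reads in 2 lines and no reads of these 3 ligands.

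Where the chains were expressed was compared between lines with the treatment as a term, over the 12 libraries of DMSO, sorafenib and toceranib. The contrast of line 001 with the mean of the 3 other lines found both IL10RB and IL22RA1 lower in 001. An F test over the 4 lines called 42.1% of all genes, and the contrast called 43.8%, of which those lower in 001 were 19.5% of all genes, so differences between lines were common. IL10RB was at 24.4 to 48.8 CPM in 001 and at 88.2 to 311 CPM in the others, without overlap, as for 9.41% of genes. Its log2 difference was -2.65 ± 0.28 (SE, adjusted p = 2.06e-05, edgeR quasi-likelihood test), and leaving out each other line or the toceranib library of 005 gave -2.85 to -2.53. For IL20RB, at 0.104, 2.98 and 0.293 CPM in 001, the log2 difference was -2.53 ± 0.60 (SE). It is described without a test, because these libraries chose the gene. With the 4 DPBS libraries in the fit, under their doubted labels, the IL20RB difference was -1.67. Ranges of IL20RB overlapped between lines because the treatments differ so widely within each. IL22RA1 was at 2.81 to 7.59 CPM in 001 and 3.43 to 15.4 CPM in the others, which overlapped. Its log2 difference was -1.04 ± 0.36 (SE, adjusted p = 0.0343, edgeR), and without line 005 it was -0.81 (adjusted p = 0.154, edgeR). The 3 libraries of a line come from 1 culture source, so these p-values measure spread between treatments within lines, not between tumours. Without line 001 the F test over the remaining lines called neither, with adjusted p from edgeR of 0.167 for IL22RA1 and 0.207 for IL10RB.

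The other class II receptor chains did not share 1 direction in line 001. Of the 7 tested, 4 were lower there and 2 were higher (adjusted p under 0.05, edgeR), against 19.5% and 24.3% of all genes. F3, the coagulation receptor tissue factor, had the lowest value of the 7, a log2 difference of -2.88 (adjusted p = 3.15e-04, edgeR). IFNGR2 differed by -1.47 (adjusted p = 9.62e-05), IFNAR2 by -1.46 (adjusted p = 0.00356) and IL10RA by -0.71 (adjusted p = 0.0104, all edgeR). IFNLR1, the specific chain of the lambda interferon receptor that uses IL10RB, was higher by 1.73 (adjusted p = 1.72e-04, edgeR). IFNAR1 was higher by 0.89 (adjusted p = 0.00137), and IFNGR1 did not pass the test (adjusted p = 0.216, both edgeR). IFNAR2, IL10RB, IFNAR1 and IFNGR2 lie next to each other in this order in the RefSeq gene table, an order looked up after the values were seen. Of these neighbours, IFNAR1 alone was higher in 001.

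Toceranib was compared with DMSO of the same line, and drug and vehicle change together there, so their parts cannot be told apart. The comparison shares its DMSO libraries with that of sorafenib. IL20RB gave ratios to DMSO of 2.81 in 001 (95% counting interval 0.536 to 27.8), 2.97 in 002 (1.13 to 9.13), 1.93 in 004 (0.778 to 5.20) and 0.707 in 005 (0.220 to 1.99). The fitted log2 fold change was 1.05 ± 0.60 (SE), and it is described without a test. It was 2.21 without the toceranib libraries of 004 and 005, in which COL3A1 was read. That is more than the ratios of 2.81 and 2.97 in the lines left, 001 and 002, amount to. The fit draws its line terms from the sorafenib libraries as well, so 2.21 is not a rise seen within those lines. IL22RA1 was at 7.59, 12.6, 6.43 and 15.4 CPM with toceranib in lines 001, 002, 004 and 005, overlapping DMSO. Its log2 fold change was 0.87 ± 0.36 (SE), higher in 3 of 4 lines, and it did not pass the test (adjusted p = 0.149, edgeR). IL10RB was at 27.9, 88.2, 218 and 224 CPM, and its log2 fold change was -0.35 ± 0.25 (SE, adjusted p = 0.389, edgeR), lower in 2 of 4 lines. Of the 2 tested chains edgeR called 0, against 7.46% of all genes, and IL22RA1 had an unadjusted p of 0.0354. The ratios of IL22RA1 to DMSO were 2.70, 3.68, 0.917 and 1.45 in the 4 lines, beside 1.45, 4.29, 0.931 and 1.45 with sorafenib.

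Against its own vehicle DPBS, in libraries that did not enter the choice of IL20RB, toceranib changed no receptor chain past the test. The fit had no line term because of the doubt over the DPBS labels. The close pairs among the DPBS libraries also put in doubt that they are 4 independent replicates. The SDs and p-values below treat them as such. IL20RB had means of 0.686 ± 0.351 CPM with toceranib and 0.60 ± 0.180 CPM with DPBS (SD, n = 4 each), a log2 fold change of 0.21 ± 0.47 (SE, adjusted p = 0.880, edgeR). The largest toceranib value was above and the smallest below all DPBS values. IL22RA1 was at 11.3, 18.5, 10.9 and 20.3 CPM with DPBS, overlapping toceranib, and its log2 fold change was -0.51 ± 0.34 (SE, adjusted p = 0.559, edgeR). IL10RB was at 122, 201, 115 and 200 CPM with DPBS, inside the range with toceranib, with -0.16 ± 0.57 (SE, adjusted p = 0.933, edgeR). This comparison called 1 of 14588 genes, 0.00685%, and 1799 genes had an unadjusted p under 0.05, while DESeq2 called 410. The called gene was CYP1A1, a detoxifying enzyme controlled by the aryl hydrocarbon receptor, named after its value was seen (log2 fold change 2.28 ± 0.14 SE, adjusted p = 0.00115, edgeR).

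The kinases and transcription factors below the receptors changed in both directions with sorafenib. Of 9 tested JAK and STAT genes, 2 rose and 3 fell, against 9.59% and 10.1% of all genes (19.6% in either direction). The list's median log2 fold change was 0.19, beside -0.02 for all genes. JAK2, a kinase of many cytokine receptors, was at 18.7 to 74.6 CPM with DMSO and 37.5 to 119 CPM with sorafenib, and rose in 4 of 4 lines by a log2 fold change of 0.90 ± 0.20 (SE, adjusted p = 0.0125, edgeR). STAT4, known from IL-12 signalling in lymphocytes, went from 7.96 to 17.4 CPM with DMSO to 17.1 to 36.7 CPM, a log2 fold change of 1.10 (adjusted p = 0.0146, edgeR). STAT6, which carries IL-4 and IL-13 signals, was at 58.9 to 105 CPM with DMSO and at 35.3 to 49.9 CPM with sorafenib, without overlap, with a log2 fold change of -1.05 (adjusted p = 0.00763, edgeR). STAT2, an interferon signal factor, fell by 0.86 on the log2 scale (adjusted p = 0.0277, edgeR), and STAT5A fell by 0.96 (adjusted p = 0.0168, edgeR). Each of these 3 was lower in 4 of 4 lines. The genes named above as the signal path of IL-20 receptors did not pass the test. JAK1 had a mean of 132 ± 46.6 CPM with DMSO and 164 ± 46.0 CPM with sorafenib (SD, n = 4 each), with a log2 fold change of 0.32 (adjusted p = 0.240, edgeR). TYK2 had 68.2 ± 10.7 and 85.7 ± 12.5 CPM, with 0.31 (adjusted p = 0.227, edgeR). STAT3 had 114 ± 48.5 and 94.1 ± 16.3 CPM, with -0.23 (adjusted p = 0.429, edgeR). Without line 004, or without line 005, none of the 9 genes was called.

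With toceranib over DMSO, 1 of the 9 JAK and STAT genes fell and 0 rose, against 3.15% and 4.31% of all genes. STAT6 fell by 0.87 on the log2 scale (adjusted p = 0.0353, edgeR) and was lower in 4 of 4 lines. The list's median was -0.19, beside -0.01 for all genes. Leaving out line 002, 004 or 005, or the toceranib library of 005 alone, left 0 of the 9 called. JAK1 had a log2 fold change of -0.49 (adjusted p = 0.114), TYK2 of 0.18 (adjusted p = 0.536) and STAT3 of -0.19 (adjusted p = 0.562, all edgeR).

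Feedback regulators of the pathway showed no called gene with either drug. All 16 genes of that list were tested. Of these, edgeR called 0 with sorafenib and 0 with toceranib, against 19.6% and 7.46% of all genes. An unadjusted p under 0.05 was found for 4 and 1, and DESeq2 called 2 and 1. SOCS3, the inhibitor that STAT3 induces, was at 1.75 to 7.09 CPM with DMSO, 1.49 to 3.88 CPM with sorafenib and 0.762 to 5.07 CPM with toceranib, and the 3 groups overlapped. Its log2 fold change was -0.05 with sorafenib (adjusted p = 0.954) and -0.46 with toceranib (adjusted p = 0.564, both edgeR). IL22RA2, the secreted decoy receptor of IL-22, had at most 6 reads in a library and was not tested.

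Genes known as STAT3 targets moved both ways with sorafenib. Of 14 tested, 3 rose and 4 fell, against 9.59% and 10.1% of all genes, and the median log2 fold change was -0.33, beside -0.02 for all genes. VEGFA, the vascular growth factor, had the largest rise, from 34.9 to 80.9 CPM with DMSO to 103 to 243 CPM with sorafenib, without overlap (log2 fold change 1.56, adjusted p = 0.00676, edgeR). HIF1A, the hypoxia factor, rose by 0.82 and the kinase PIM1 by 0.69 (adjusted p = 0.0117 and 0.0404, edgeR). JUNB, an AP-1 subunit, was at 103 to 281 CPM with DMSO and 38.2 to 63.3 CPM with sorafenib (log2 fold change -1.55, adjusted p = 0.00324, edgeR). CEBPD, an acute-phase transcription factor, fell by 1.52 (adjusted p = 8.23e-04), IRF1 by 0.92 (adjusted p = 0.0433) and the survival protein MCL1 by 0.70 (adjusted p = 0.0296, all edgeR). These genes also answer to other pathways, and which of them acted was not tested. With toceranib 0 rose and 2 fell, the survival genes BIRC5 by 0.95 and BCL2L1 by 0.71 (adjusted p = 0.0290 and 0.0339, edgeR), against 4.31% and 3.15% of all genes, and the median was -0.22. Neither was called when line 002, 004 or 005 was left out. Without line 004 or 005, 0 rising and 2 falling genes were called with sorafenib.

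Of 22 genes known to respond to IL-20 family cytokines in skin or liver, mostly in human, 19 were in the tables and 8 had reads enough to test. With sorafenib 1 rose and 2 fell, against 9.59% and 10.1% of all genes. KRT16, a keratin of activated keratinocytes, was at 1.15 to 70.3 CPM with DMSO and 8.60 to 120 CPM with sorafenib. The groups overlapped, but each of the 4 lines was higher with the drug (log2 fold change 1.68, adjusted p = 0.00683, edgeR). PI3, the antiprotease elafin, was at 0.104 to 17.2 CPM with DMSO and at 0.0878 to 0.796 CPM with sorafenib (log2 fold change -3.79, adjusted p = 0.00751, edgeR). Without line 002 its value was -2.88 and without 004 -3.27, and it was not called either time (adjusted p = 0.0853 and 0.103, edgeR). FGA, a fibrinogen chain, was at 0 to 2.09 CPM and 0 to 0.219 CPM (log2 fold change -3.78, adjusted p = 0.0117, edgeR), a fitted value that depends on few reads. It was -4.89 without line 001, and without 004 or 005 FGA was not called (adjusted p = 0.0640 and 0.0951, edgeR). The antimicrobial gene S100A8, at 0.313 to 2.54 CPM with DMSO and 0.263 to 0.776 CPM with sorafenib, did not pass the test (adjusted p = 0.248, edgeR). The other 2 keratins of the list were KRT10, also not called, and KRT1, at 0 in all 16. With toceranib edgeR called 0 of the 8, against 7.46% of all genes, with 0 at an unadjusted p under 0.05 and 0 by DESeq2. The list's medians were -0.64 with sorafenib and 0.15 with toceranib. With all 16 libraries in 1 fit, which takes the doubted DPBS labels as lines, none of the 8 was called with sorafenib. KRT16 was then at 1.56 ± 0.61, FGA at -3.74 ± 1.44 and PI3 at -3.89 ± 1.30 (SE). The SEs in the main fit were 0.32, 0.84 and 0.75.

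Other cytokine receptor chains of epithelia were read for comparison with IL20RB. Of 18 tested with sorafenib, 3 rose and 2 fell, against 9.59% and 10.1% of all genes, and the median log2 fold change was 0.07. LIFR, a receptor chain for leukaemia inhibitory factor and oncostatin M, was at 1.87 to 47.4 CPM with DMSO and 5.93 to 188 CPM with sorafenib (log2 fold change 1.77, adjusted p = 0.00418, edgeR). IL1RL1, the IL-33 receptor, was at 0 to 22 CPM and 0.647 to 36.1 CPM (log2 fold change 2.31, adjusted p = 0.0218, edgeR). Its value was 3.22 without line 001, and it was not called without 002, 004 or 005, at 2.03, 2.52 and 1.62 (adjusted p = 0.0894, 0.0900 and 0.136, edgeR). IL1RAP, the shared chain of IL-1 and IL-33 receptors, was at 11.5 to 20.2 CPM and 24.4 to 50.9 CPM, without overlap (log2 fold change 1.23, adjusted p = 0.0256, edgeR). All 3 were higher in 4 of 4 lines. IL11RA fell by 1.20 and TNFRSF1A, the main TNF receptor, by 0.55 (adjusted p = 0.0293 and 0.0312, edgeR). With toceranib edgeR called 0 of the 18, against 7.46% of all genes, with 5 at an unadjusted p under 0.05 and 3 called by DESeq2. Without line 002, 004 or 005, 1 rising and 0 falling chains were called with sorafenib. The class II chains that are no members had 0 of 7 called with sorafenib, against 19.6% of all genes. Of the 7, 0 had an unadjusted p under 0.05 and 0 were called by DESeq2. With toceranib edgeR also called 0 of these 7, against 7.46% of all genes, with 2 at an unadjusted p under 0.05 and 2 by DESeq2. The largest of their sorafenib log2 fold changes was 0.52, for F3, where that of IL20RB was 5.61.

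**Figure D3:**
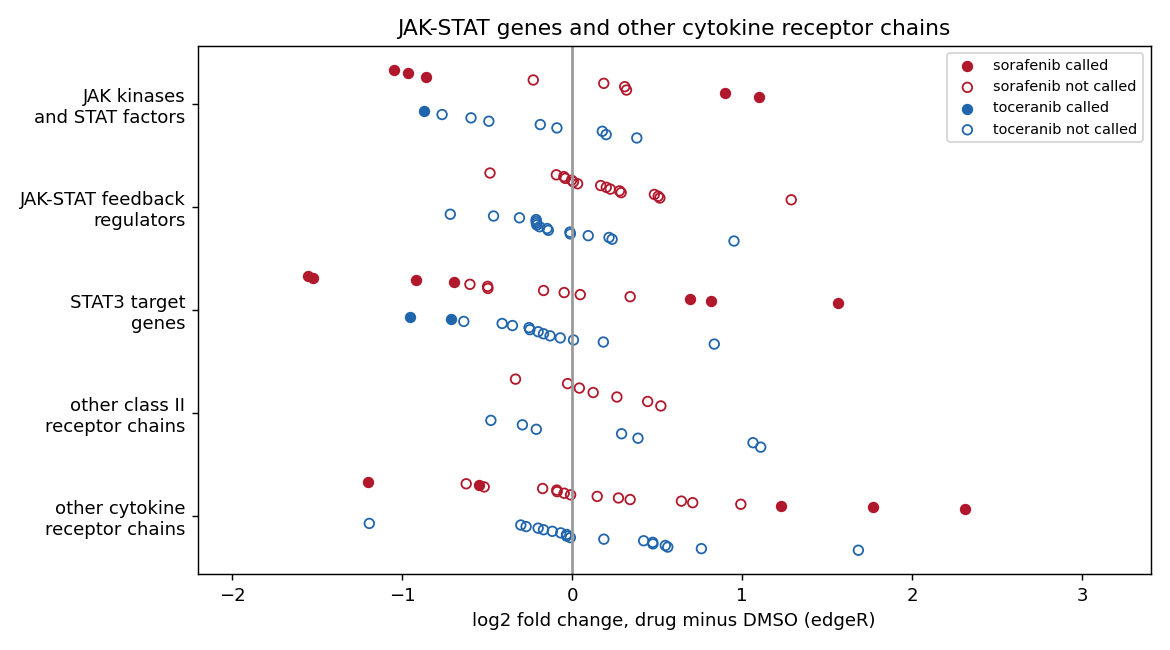
Log2 fold changes of sorafenib (red) and toceranib (blue) over DMSO for the tested genes of 5 lists, from the edgeR fit of 12 libraries, with filled points for an adjusted p under 0.05. With sorafenib 5 of 9 JAK and STAT genes and 7 of 14 STAT3 targets are filled on both sides of 0, and none of the 7 other class II chains. Of all tested genes, 19.6% were called with sorafenib.

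Some of the cell type markers also changed with the drugs. Of 4 testable keratinocyte markers, 2 rose with sorafenib, against 9.59% of all genes. The keratinocyte cadherins DSG3 and DSC3 rose with sorafenib by 1.28 and 0.71 on the log2 scale (adjusted p = 0.0209 in both cases, edgeR). KRT14 and KRT10 had -0.87 and -0.46 (adjusted p = 0.358 and 0.181, edgeR), each higher in 1 of 4 lines. TP63 and KRT5 had at most 6 and 2 reads and KRT1 none, and without line 002 or 005 none of the 4 was called. The summed keratinocyte markers ran from 65.8 to 489 CPM with DMSO and 68.3 to 727 CPM with sorafenib. Of 6 tested cholangiocyte markers, SPP1 alone was called with sorafenib and fell, with a log2 fold change of -3.01 (adjusted p = 0.00272, edgeR). With toceranib SPP1 rose by 2.84 and EPCAM by 0.95 (adjusted p = 0.0115 and 0.0243, edgeR), 2 of the same 6 against 4.31% of all genes. Neither was called without line 002, 004 or 005, or without toceranib of both 004 and 005. Summed cholangiocyte markers ran from 1073 to 13224 CPM with DMSO, 499.9 to 9386 CPM with sorafenib and 3306 to 10557 CPM with toceranib. The part of these markers in the receptor values was not tested.

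Genes whose pattern was most like that of IL20RB were ranked by Pearson's r of log2(CPM + 0.5) over the 12 libraries of DMSO, sorafenib and toceranib, among 13669 genes with a mean of at least 1 CPM. The libraries of 1 line share their source, and the sorafenib libraries set most of the range, so r is a description. The 10 highest were SLC35D1 (r = 0.973), KCTD5 (0.960), RNF14 (0.957), PLEKHF2 (0.950), GPBP1 (0.949), CORO1A (0.947), UNC5B (0.945), CNIH1 (0.943), HSPA5 (0.939) and P4HB (0.933). There were 45 genes with r above 0.9. SLC35D1, a nucleotide sugar transporter of the endoplasmic reticulum, had means of 14.0, 32.7 and 15.1 CPM with DMSO, sorafenib and toceranib. HSPA5, the main chaperone of the endoplasmic reticulum, had 742, 3811 and 1200 CPM, and P4HB, a protein disulfide isomerase there, had 1053, 1794 and 958 CPM. CORO1A, an actin-binding protein, had 1.73, 12.9 and 1.22 CPM, and UNC5B, a netrin receptor, had 14.2, 73.7 and 11.5 CPM. All 10 had their highest mean with sorafenib, and their sorafenib log2 fold changes ran from 0.40 (GPBP1) to 2.54 (CORO1A), each under that of IL20RB. The partner chains were less like it, with r of 0.402 for IL22RA1, 0.377 for IL10RB and -0.124 for IL20RA. With line means subtracted, 1 of the 10 genes was again among the top 10, although all 10 kept r of 0.940 or more.

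**Figure D4:**
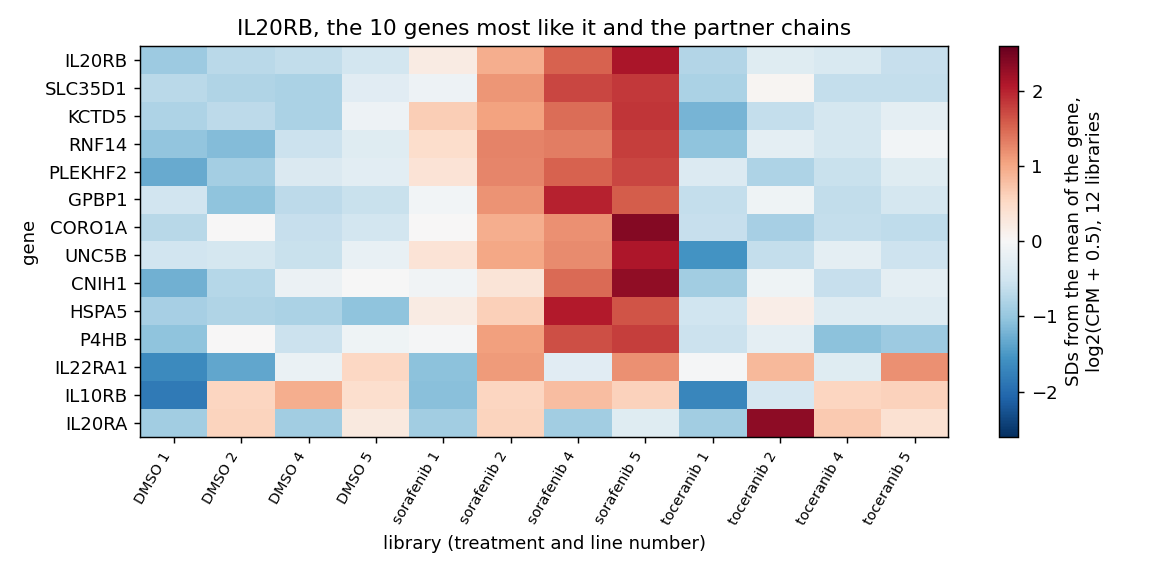
Levels of IL20RB, the 10 genes most like it and the 3 partner chains in 12 libraries (treatment and line number), as log2(CPM + 0.5) in SDs from the mean of the gene. The 10 genes are at their highest in sorafenib of 002, 004 and 005, while IL10RB is lowest in the 3 libraries of 001.

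The genes beside IL20RB in the RefSeq gene table did not share its change. The nearest on one side, NCK1, a signalling adaptor, had 35.3 ± 7.22 CPM with DMSO and 33.1 ± 8.06 CPM with sorafenib (SD, n = 4 each), a log2 fold change of -0.11 (adjusted p = 0.634, edgeR). SLC35G2 followed with -0.05 (adjusted p = 0.919), and CLDN18, a claudin on the other side, had -1.54 (adjusted p = 0.220, both edgeR). SOX14 had no read in any library, and LOC100682831 and DZIP1L at most 2. Beside IL20RA lie IL22RA2 and IFNGR1. IFNGR1 had -0.03 with sorafenib (adjusted p = 0.958) and 1.06 with toceranib (adjusted p = 0.0512, both edgeR). MAP3K5, a stress kinase on the other side of IL20RA, fell with sorafenib by 0.97 (adjusted p = 0.00852, edgeR), PEX7 had -0.01 (adjusted p = 0.971, edgeR), and SLC35D3 and OLIG3 had at most 13 and 0 reads. Next to the silent ligand cluster, MAPKAPK2, a kinase of the p38 pathway, rose with sorafenib by 0.60 (adjusted p = 0.0147, edgeR). PIGR, the immunoglobulin transporter of epithelia, had -1.39 (adjusted p = 0.0788) and FCMR -0.69 (adjusted p = 0.309, both edgeR), while IL10 had 0 reads and FCAMR at most 3.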

How the data were processed

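The authors deposited a table of raw whole-number counts for each library, keyed by gene symbol. Per the labels' protocols, total RNA (Trizol) went into NEBNext Ultra II Directional libraries. Per the submitters' processing notes TopHat was used. Not given in the sources used here are its version, the read counter with its strand setting, the build and the gene models. No coordinates or sequences are therefore printed, and counts of overlapping or antisense genes are uncertain.

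Of 39954 entries per table, 500 shared 89 symbols and were summed. This left 39543 symbols, of which 28342 had a read. Names and neighbours come from RefSeq genes of UU_Cfam_GSD_1.0, which matched 37336 symbols. Fits ran in R 4.3.3 with edgeR 4.0.16 (limma 3.58.1): filterByExpr by treatment, TMM scaling, robust quasi-likelihood fits and Benjamini-Hochberg adjustment over all tested genes, with a threshold of 0.05. DMSO, sorafenib and toceranib entered 1 fit with the cell line as a term (12 libraries, 14938 genes, 6 residual degrees of freedom, common dispersion 0.0808). Toceranib and DPBS entered another without it (8 libraries, 14588 genes, dispersion 0.189). The fits of the drug comparisons were tested on simulated data. Its libraries were drawn independently, so the simulation does not cover the close pairs among the DPBS libraries. The planned line test of IL20RB is not given, since its libraries chose the gene. CPM are on TMM sizes of the 16 libraries.

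Lines pair the libraries by their labels. As a check, deviations from treatment means were correlated within lines. The values were 0.75 to 0.892 for DMSO with sorafenib and 0.555 to 0.794 for DMSO with toceranib, and each library matched its own line best. For toceranib with DPBS they were -0.505 to 0.55, and 0 of 4 libraries matched best.

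Named genes were the 7 members, up to 4 called genes of each list in each direction by adjusted p, JAK1, TYK2, STAT3, SOCS3 and IL22RA2, the 10 genes most like IL20RB, and 3 neighbours on each side. Some genes of the planned lists are not reported here, and the lists were counted without them. Genes named outside this rule were chosen after their values were seen. The members and lists were chosen with earlier results of these data known. Alternatives were RLE scaling, DESeq2 1.42.0, no filter, fits of 16 or 8 libraries, other uses of the line block and leaving out lines or libraries. Those without the libraries that held stromal transcripts were added after the data were seen. Promoter motifs and levels per coding length were planned but not run, since no sequences were used here. Intervals are exact at 95% and cover counting error.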

Additional observations from a re-analysis of the deposited data

Results flagged for a closer look

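IL10RB with sorafenib in line 001 was at 48.8 CPM, far below the other 3 sorafenib libraries at 219 to 271 CPM. Its gap to the nearest of them was 0.875 of the range of the group on the log2(CPM + 0.5) scale, above Dixon's critical value for 4 samples at the 95% level. On the CPM scale it was 0.766, which is below that value. It was the only one of 16 groups of 4 libraries (4 receptor chains in 4 treatments) past that value on the log2 scale, and chance gives about 1 in 20. The DMSO and toceranib libraries of the same line were also the lowest of their groups, at 24.4 and 27.9 CPM.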

How the results depend on the processing

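The number of called genes depended on the fit. With sorafenib over DMSO it was 2935, and 464 with no replicate block, 5053 in 8 libraries of the 2 arms and 596 to 3906 leaving out a line. With toceranib over DMSO it was 1115, and 2335 with DESeq2, 557 with 16 libraries, 129 in 8 libraries, 66 without the toceranib library of 005, 0 (2048 unadjusted, edgeR) with no replicate block, 0 (2639 unadjusted, edgeR) without toceranib of 004 and 005, and 1 to 3044 leaving out a line. With toceranib over DPBS it was 1, and 410 with DESeq2, 0 with 16 libraries, 0 with the replicate block and 0 without the 3 libraries with stromal transcripts (1374, 1232 and 1000 unadjusted, edgeR), and 0 to 1 leaving out a replicate. Between lines it was 6293, and 1694 with 16 libraries and 2470 to 6524 leaving out a line or the toceranib library of 005.

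For IL20RB, toceranib over DMSO was 0.73 to 1.67 leaving out a line or the toceranib library of 005, the highest without that library. It was 2.21 without toceranib of 004 and 005. Both 1.67 and 2.21 are above what the ratios to DMSO in the lines left amount to. The fit draws its line terms from the sorafenib libraries as well. Over DPBS it was -0.11 to 0.46 leaving out a replicate and reversed without 002. IL10RB over DPBS was -0.60 to 0.11, reversed without 001 (0.04) and without 002 (0.11). The contrast of line 001 in 16 libraries was -1.67 for IL20RB, with no test, and for IL22RA1 it was -1.29 to -0.81 leaving out a line. The F test over lines in 16 libraries gave an adjusted p of 0.0565 for IL22RA1, and 0.0700 for IL22RA1 without toceranib of 005 (edgeR). Leaving out a line or that library gave 0.0179 to 0.245 for IL22RA1 and 1.12e-04 to 0.207 for IL10RB (edgeR). The causes were not tested. In these fits of 16 libraries the line term used the doubted DPBS labels. The 001 contrast could not be had without 001.

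Leaving out a line gave -0.42 to 0.36 for SOCS3 with sorafenib, reversed without 001 or 004 (0.23), and -0.35 to 0.025 for STAT3 with toceranib, reversed without 004. SOCS3 with toceranib was 0.12 without toceranib of 004 and 005. Of 403 values of single list genes under alternatives, 281 kept direction and call, 118 lost the call and 4 reversed. Of the 10 genes most like IL20RB, 6 stayed with 16 libraries and 1 with line means subtracted. Depth limits IL20RA and the ligands, and IL20RB outside sorafenib.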
